A study of Mus musculus with 6 samples.

Results

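Expression of 9 genes of sodium uptake and mineralocorticoid action was followed in 6 clones of mpkCCD cells, which come from mouse cortical collecting duct in the kidney. The genes were chosen by symbol from the deposited read table: the 3 subunits of the epithelial sodium channel (Scnn1a, Scnn1b and Scnn1g), the beta 1 subunit of the Na,K-ATPase (Atp1b1), the mineralocorticoid receptor (Nr3c2), the enzyme that protects it (Hsd11b2) and the effectors Sgk1, Nedd4l and Tsc22d3. These are 9 of the 20896 genes in the table. All 9 are among the 16683 genes with enough reads to be tested.

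The control group was 3 control clones and the other group was 3 clones labelled PKA dKO, for a double knockout of protein kinase A, the kinase that cyclic AMP activates. The series title names CRISPR-Cas9 as the method. Each clone is 1 line with 1 library, so a difference between groups cannot be told apart from other differences between the lines. All 6 clones were grown for 4 days on permeable supports in 2% serum with insulin, 50 nM dexamethasone, 1 nM triiodothyronine, epidermal growth factor, selenite and transferrin. They then spent 3 days in medium without serum or hormones but with 0.1 nM dDAVP, an agonist of the vasopressin V2 receptor. No aldosterone is named in the labels, and dexamethasone, a synthetic glucocorticoid, was absent from the last 3 days. The values therefore describe these genes under dDAVP after steroid withdrawal, and neither a response to steroid nor a response to dDAVP was measured.

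In principal cells of the collecting duct, sodium enters through the epithelial sodium channel (ENaC) at the apical membrane and is pumped out by the Na,K-ATPase at the basolateral membrane. Aldosterone binds the mineralocorticoid receptor, a nuclear receptor that also binds cortisol and corticosterone, and the enzyme made from Hsd11b2 inactivates those glucocorticoids in the same cell. Among the receptor's target genes is Sgk1, whose kinase phosphorylates the ubiquitin ligase made from Nedd4l. That phosphorylation keeps the ligase from removing ENaC from the membrane.

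Which genes were edited is left unnamed in the labels. Prkaca, which encodes a PKA catalytic subunit, ranged from 75.8 to 133 CPM (reads per 1000000 reads of the library) over the control clones and from 6.65 to 8.49 CPM over the dKO clones, Prkacb from 109 to 138 and 99.1 to 105 CPM, and the water channel gene Aqp2 from 139.8 to 399 and 1.82 to 3.39 CPM. Recovered reads numbered 28596444 to 42515838 per library. Control clone 1 and dKO clone 3 stood apart: 2443 and 2363 transcripts had no read there, compared with 863 to 1045 elsewhere, so fold changes are also given without these 2 libraries. Of 12 markers of principal cells, 11 were in the table, 3 of them members here. The 11 summed to 756 to 1395 CPM in control and 933 to 1005 CPM in dKO clones. Tfcp2l1 led this sum, at 403 to 639 CPM in control and 735 to 776 CPM in dKO clones. Aqp2, Aqp4 and Avpr2 went the other way, each lower in every dKO clone than in every control clone. Aqp4 and Avpr2 were named after their values were seen. Similar sums therefore do not show that each marker was kept. Aqp3 was at 1.36 to 1.84 CPM in every clone, and Kcnj1 and Elf5 averaged under 1 CPM. Intercalated-cell markers summed to 28.6 to 51.1 CPM in control and 23.0 to 53.3 CPM in dKO clones, with Foxi1 and Slc26a4 under 1 CPM on average. Markers of the distal convoluted tubule summed to 9.10 to 22.1 CPM and 7.21 to 8.65 CPM, those of proximal tubule to 4.95 to 9.56 and 7.30 to 10.1 CPM, those of thick ascending limb to 0.747 to 2.59 and 0.533 to 2.03 CPM, those of fibroblasts to 1.33 to 5.53 and 1.09 to 4.21 CPM and those of leukocytes, led by Csf1r, to 37.8 to 62.7 and 36.4 to 69.2 CPM. No marker was at 0 in all 6 libraries. The part of any of these cell types in the results was not tested.

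Start-site sequences are given for Sgk1 and for the neighbouring genes Scnn1g and Scnn1b. RefSeq windows of 250 bases before to 50 bases after a start (GRCm38.p6, the same chromosome coordinates as the table's GRCm38) were found for 6 of the 9 genes, in 13 windows; Scnn1a, Hsd11b2 and Nedd4l had none. The glucocorticoid and mineralocorticoid receptors bind the same palindrome, an inverted repeat of TGTTCT with 3 bases between the arms, which was searched on both strands and occurred in 3 of 32851 windows of all genes (0.00913%). Of these 3 windows, 1 belongs to Sgk1. It lies at chr10:21993640-21993889 on the plus strand, before an alternative start 776 bases upstream of the start of the Sgk1 transcript in the table, and overlaps no annotated exon. Capitals mark the palindrome (chr10:21993701-21993715, 189 bases before that start), the TATA box TATAAA and the GC box GGGCGG on either strand. The 250 bases before each start, 5′ to 3′, were the following, with Scnn1g at chr7:121734229-121734478, Scnn1b at chr7:121864788-121865037 and the start of the table's Sgk1 transcript at chr10:21994416-21994665, all on the plus strand.
Sgk1, alternative start: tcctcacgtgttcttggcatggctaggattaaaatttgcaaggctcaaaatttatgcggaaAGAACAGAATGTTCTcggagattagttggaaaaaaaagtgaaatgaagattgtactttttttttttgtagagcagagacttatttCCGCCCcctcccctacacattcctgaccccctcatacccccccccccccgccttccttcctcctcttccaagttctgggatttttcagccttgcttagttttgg
Sgk1, start of the table's transcript: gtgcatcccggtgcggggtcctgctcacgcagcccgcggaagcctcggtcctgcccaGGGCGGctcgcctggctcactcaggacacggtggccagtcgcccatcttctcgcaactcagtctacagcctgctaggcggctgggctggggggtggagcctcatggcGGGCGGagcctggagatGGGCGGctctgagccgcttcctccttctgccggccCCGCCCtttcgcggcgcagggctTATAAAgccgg
Scnn1g: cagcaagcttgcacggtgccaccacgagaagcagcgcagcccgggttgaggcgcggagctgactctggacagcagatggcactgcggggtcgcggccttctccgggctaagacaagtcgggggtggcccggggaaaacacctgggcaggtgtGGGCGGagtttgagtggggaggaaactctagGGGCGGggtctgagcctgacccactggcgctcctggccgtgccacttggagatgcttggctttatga
Scnn1b: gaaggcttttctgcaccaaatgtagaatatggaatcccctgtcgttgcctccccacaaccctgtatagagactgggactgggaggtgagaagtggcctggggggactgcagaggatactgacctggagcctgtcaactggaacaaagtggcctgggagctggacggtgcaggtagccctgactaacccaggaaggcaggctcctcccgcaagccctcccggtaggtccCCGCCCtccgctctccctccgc
Of the 13 windows, 6 belong to Sgk1 and 3 to Tsc22d3, so the counts below are of windows and not of genes. A single TGTTCT, which is part of the palindrome, was in 19.0% of all windows. It was in 4 of the 13 windows of these genes, all of Sgk1 or Tsc22d3, and the palindrome's own window is among them. The cyclic AMP response element TGACGTCA was in 1.79% of all windows and in 0 of the 13, and its core TGACG was in 20.8% and in 2, belonging to an upstream start of Sgk1 and another of Tsc22d3. The TATA box was in 13.6% and in 2, both of Sgk1. The GC box was in 35.7% of all windows and in 8 of the 13. Only exact matches were searched. A match describes the letters, and neither binding nor use of these starts was measured.

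Levels of different genes were compared as RPKM, here the CPM of recovered reads divided by the transcript length in kilobases, as mean ± SD over the 6 clones. The genes fell into 3 tiers. Tsc22d3 (166 ± 18.8 RPKM), Atp1b1 (146 ± 28.1), Sgk1 (144 ± 42.5) and Scnn1a (94.96 ± 12.9) formed the highest, at the 96.4 to 98.2 percentile of all genes tested. Hsd11b2 (14.7 ± 12.9), Nedd4l (12.6 ± 0.853) and Scnn1g (12.2 ± 2.64) formed the middle tier, and Nr3c2 (1.79 ± 0.660) and Scnn1b (0.926 ± 0.342) the lowest, at the 39.0 and 34.9 percentile. Neighbours within a tier overlapped over the clones: Atp1b1 exceeded Sgk1 in 2 of 6 clones, Hsd11b2 exceeded Nedd4l in 3 and Nedd4l exceeded Scnn1g in 4. Tsc22d3 exceeded Atp1b1, and Sgk1 exceeded Scnn1a, in all 6 clones. Between tiers no ranges met.

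**Figure D1:**
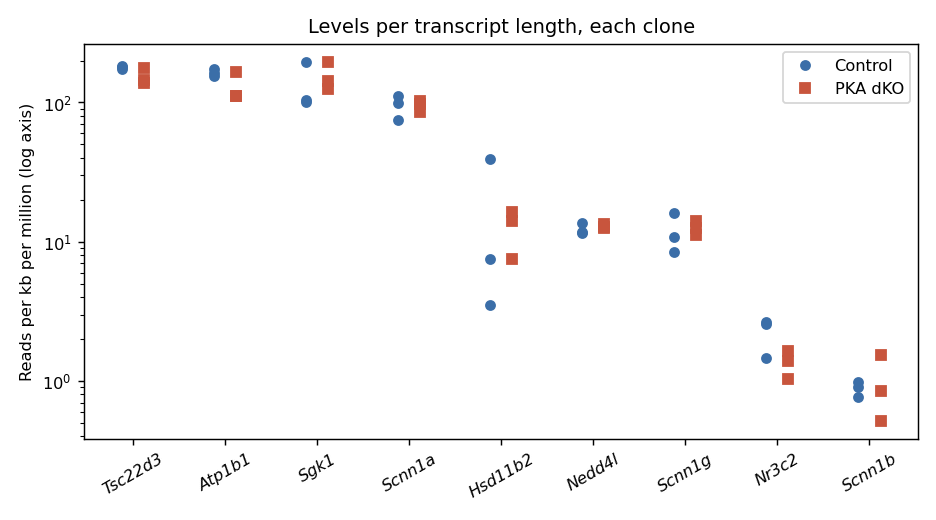
Level per transcript length of each gene (RPKM, log axis) in 3 control clones (circles) and 3 PKA dKO clones (squares), ordered by the mean over 6 clones. Scnn1a lies at 74.7 to 111, Scnn1g at 8.47 to 16.0 and Scnn1b at 0.515 to 1.54, so the 3 channel subunits are in separate tiers.

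No member passed the test between dKO and control clones (limma-trend on log2 of scaled reads with a pseudocount of 1, Benjamini-Hochberg adjusted p under 0.05), against 0.168% of all genes tested, of which 0.0539% were higher and 0.114% lower in dKO. At an unadjusted p under 0.05 there was 1 member, Nr3c2, against 6.24% of all genes, and edgeR's quasi-likelihood test and DESeq2 called 0 members, against 0.168% and 1.71% of genes. The groups overlapped for all 9 members, whereas they did not overlap for 10.8% of all genes. The fold change was positive for 6 members and negative for 3, with a median of 0.02 on the log2 scale, and the median over all genes was -0.00145. The p-values measure only the spread between these single-clone libraries, and fewer cells of a type and less RNA per cell cannot be told apart in bulk RNA. A p that misses the threshold does not show that the groups are alike, so each 95% interval is given.

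Scnn1a encodes the alpha subunit, which the channel needs to reach the membrane (ENSMUSG00000030340.16, transcript ENSMUST00000081440.13, GRCm38 chromosome 6, 125321340 to 125344943, plus strand, 12 exons). Control clones 1, 2 and 3 had 343, 385 and 259.6 CPM, and dKO clones 1, 2 and 3 had 357, 337 and 298 CPM. The dKO values lay inside the control range. The means were 329 ± 64.0 and 330.5 ± 30.2 CPM (SD, n = 3), a log2 fold change of 0.02 with a 95% interval of -0.34 to 0.38 (limma adjusted p = 1.00). The lowest dKO value was that of clone 3, in which genes of chromosome 6 had a median deviation of -0.40 on the log2 scale against 0.03 to 0.19 in the other 5 libraries. With chromosome medians removed the log2 fold change of Scnn1a was 0.19.

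Scnn1g, the gamma subunit (ENSMUSG00000000216.8, ENSMUST00000000221.5, chromosome 7, 121734479 to 121768475, plus strand, 13 exons), read 47.4, 32.1 and 25.1 CPM (control) and 41.8, 37.0 and 33.0 CPM (dKO). Control clone 1 was the highest of all and control clone 3 the lowest, with the dKO clones between. The log2 fold change was 0.14 (SE 0.21; interval -0.33 to 0.60). Scnn1b, the beta subunit, lies further along the same strand (ENSMUSG00000030873.9, ENSMUST00000033161.6, chromosome 7, 121865038 to 121918512, 13 exons). The control clones had 2.21, 1.87 and 2.39 CPM and the dKO clones 3.78, 2.09 and 1.26 CPM, from 45 to 152 reads. The dKO clones thus held both the highest and the lowest value, and the exact Poisson 95% intervals of dKO clone 1 (3.21 to 4.44 CPM) and dKO clone 3 (0.921 to 1.69 CPM), which cover counting error only, did not meet. The log2 fold change was 0.01 with the widest interval of the 3 subunits, -0.94 to 0.96.

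Because the assembled channel holds all 3 subunits, their ratios were also taken within each clone, per transcript length. The alpha transcript exceeded gamma by 6.18 to 10.2 times and beta by 66.5 to 166 times over the 6 clones. The alpha to gamma ratio was 8.42 ± 2.07 in control and 7.59 ± 0.259 in dKO clones, and the groups overlapped (exact two-sided permutation p = 0.70). The excess of alpha over beta was present in every clone, at 109, 146 and 76.5 times (control clones 1, 2 and 3) and 66.5, 114 and 166 times (dKO clones 1, 2 and 3). In control clone 2 Scnn1b had 1.87 CPM, beside 1.87 CPM for the leukocyte marker Cd3e and 1.90 CPM for Itgam. In control clone 1 it had 2.21 CPM, beside 0.111 and 0.194 CPM. The exact size of any ratio, fold change or profile of Scnn1b therefore rests on low values.

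Atp1b1 encodes the beta 1 subunit, which the Na,K-ATPase needs to leave the endoplasmic reticulum (ENSMUSG00000026576.12, ENSMUST00000027863.12, chromosome 1, 164437109 to 164458355, minus strand, 6 exons). The control clones had 446, 417 and 396 CPM and the dKO clones 285, 285 and 425 CPM. In the dKO group, clones 1 and 2 lay below every control clone, and clone 3 lay inside the control range. The means were 419.6 ± 25.4 and 332 ± 81.1 CPM, a log2 fold change of -0.36 (SE 0.17; interval -0.74 to 0.01; limma adjusted p = 0.826). In its annotated transcript, 575 bases overlap exons of Nme7 on the other strand; any use of strand in the counting was not given in the sources used here.

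Atp1b3 encodes another beta subunit of the pump. The ratio of Atp1b1 to Atp1b3 per transcript length was 4.12 ± 0.776 over the control and 3.63 ± 0.343 over the dKO clones, and the groups overlapped (exact two-sided permutation p = 0.50, n = 3 each).

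Nr3c2, the mineralocorticoid receptor (ENSMUSG00000031618.13, ENSMUST00000109912.7, chromosome 8, 76902288 to 77245007, plus strand, 9 exons), read 8.33, 14.4 and 15.0 CPM (control) and 7.92, 9.25 and 5.84 CPM (dKO), from 208 to 653 reads. Control clones 2 and 3 lay above every dKO clone, and control clone 1 lay between dKO clones 1 and 2. The means were 12.6 ± 3.70 and 7.67 ± 1.72 CPM, a log2 fold change of -0.69 (SE 0.27; interval -1.28 to -0.09), the most negative of the 9. It had an unadjusted p of 0.0272 and did not pass over all genes (limma adjusted p = 0.658).

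The glucocorticoid receptor gene Nr3c1, whose protein binds the same DNA palindrome, was more abundant per transcript length in every clone. The control clones had 137, 103 and 98.5 CPM of it and the dKO clones 125, 131 and 140.3 CPM, and the log2 fold change of 0.24 did not pass (limma adjusted p = 0.976). The ratio of Nr3c1 to Nr3c2 was 14.8, 6.40 and 5.87 (control) and 14.1, 12.7 and 21.6 (dKO), with control clone 1 inside the dKO range (exact two-sided permutation p = 0.30). After Benjamini-Hochberg adjustment over the 5 ratios compared, the lowest p was 0.875; 3 against 3 clones cannot go below an exact p of 0.10. Of the 12 genes of the receptor machinery, with chaperones and coregulators, 0 passed in either direction and the median log2 fold change was 0.08. The chaperone gene Hsp90ab1 was the most abundant of them, at 2097 ± 246 CPM (control) and 1959 ± 55.4 CPM (dKO, n = 3 each), and the immunophilin gene Fkbp4 had a log2 fold change of -0.20.

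**Figure D2:**
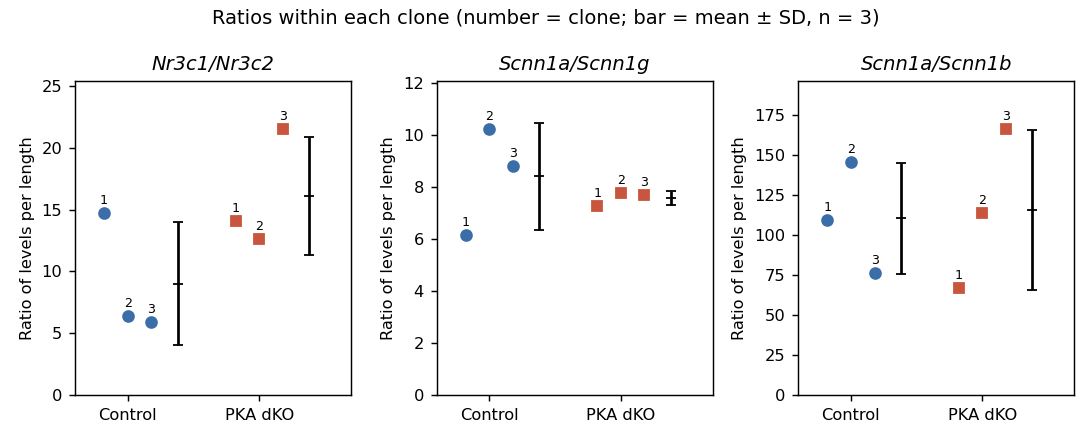
Ratios of levels per transcript length within each clone (numbers are clones, circles control, squares PKA dKO, bars mean ± SD, n = 3). The groups overlap in all 3 panels, and the ratio of Scnn1a to Scnn1g is 7.29 to 7.78 in the dKO clones and 6.18 to 10.2 in the control clones.

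Hsd11b2 encodes 11-beta-hydroxysteroid dehydrogenase type 2 (ENSMUSG00000031891.6, ENSMUST00000034363.5, chromosome 8, 105518746 to 105523984, plus strand, 5 exons). It differed most between clones of all 9 genes, at 71.9, 6.41 and 13.7 CPM (control) and 25.6, 29.96 and 13.7 CPM (dKO). The control clones spanned 11.2-fold and enclosed every dKO value. Counting error was small beside this, since the exact Poisson intervals of control clone 1 (69.2 to 74.7 CPM) and control clone 2 (5.55 to 7.38 CPM) were far apart. Its spread between clones of a group, a residual SD of 1.325 on the log2 scale, was above that of 92.7% of all genes tested, whose median was 0.27. The log2 fold change was 0.24 with an interval of -1.23 to 1.71, and the means were 30.7 ± 35.9 and 23.1 ± 8.43 CPM, so the mean and the log scale differed in direction. Fitted to recovered reads it was -0.41 by edgeR's quasi-likelihood test and -0.42 by DESeq2, and it passed in neither. Hsd11b1, which runs the opposite reaction, had 0.253 to 1.28 CPM over the 6 clones.

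Sgk1, the serum and glucocorticoid regulated kinase (ENSMUSG00000019970.15, ENSMUST00000020145.11, chromosome 10, 21994666 to 21999903, plus strand, 12 exons), read 247, 475 and 254 CPM (control) and 303, 344 and 475 CPM (dKO). The highest clone of each group was near 475 CPM. The log2 fold change was 0.25 (SE 0.25; interval -0.30 to 0.80). Genes of chromosome 10 had a median deviation of -0.23 in control clone 1, where Sgk1 was lowest; the log2 fold change with chromosome medians removed was 0.22. Its relatives Sgk3 and Sgk2 averaged 20.8 and 1.98 RPKM, so Sgk1 was the most abundant of the 3 kinase genes.

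Nedd4l encodes the ligase NEDD4-2 (ENSMUSG00000024589.17, ENSMUST00000163516.7, chromosome 18, 64887756 to 65217826, plus strand, 30 exons). It was the steadiest of the 9, at 111, 94.0 and 94.4 CPM (control) and 108, 103 and 102 CPM (dKO). Its residual SD of 0.10 stood at the 6.55 percentile of genes tested, and its log2 fold change of 0.07 had the narrowest interval, -0.20 to 0.34. Nedd4, its close relative, averaged 216 RPKM against 12.6 RPKM for Nedd4l. The assignment of reads shared by such relatives was not given in the sources used here. Nedd4l has 34 annotated transcripts, Sgk1 13, Nr3c2 8, Scnn1a 7, Tsc22d3 6, Atp1b1 4 and Scnn1b 3. The table lists 1 for each gene, and levels per length use the length of that transcript.

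Tsc22d3, the glucocorticoid-induced leucine zipper gene GILZ (ENSMUSG00000031431.13, ENSMUST00000055738.11, chromosome X, 140539528 to 140543187, minus strand, 3 exons), read 343, 358 and 351 CPM (control) and 285, 273 and 348 CPM (dKO). As for Atp1b1, dKO clones 1 and 2 lay below every control clone and dKO clone 3 lay within the control range. The log2 fold change was -0.22 (SE 0.14; interval -0.52 to 0.08; limma adjusted p = 0.975). The control clones differed by 1.04 times at most, the smallest spread within the control group of the 9 genes.

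**Figure D3:**
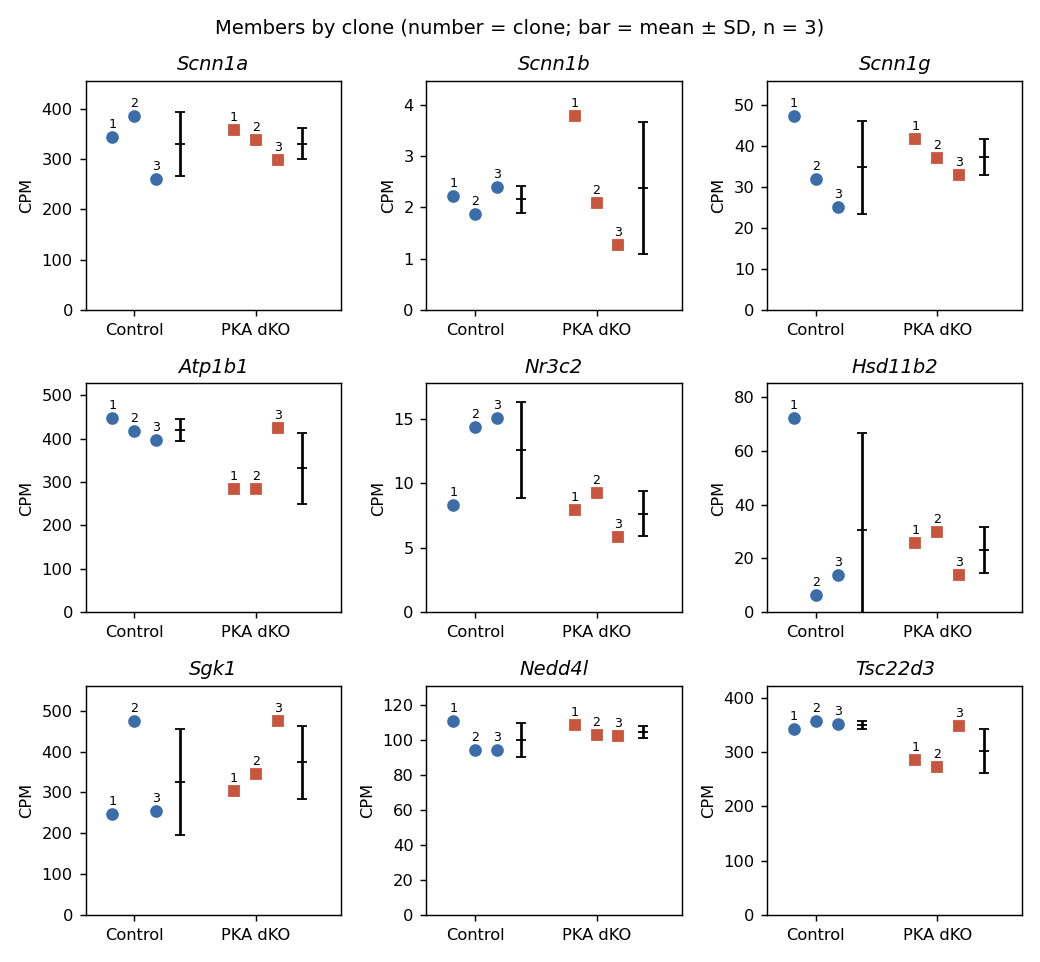
CPM of each gene in each clone, on axes that start at 0 (numbers are clones, circles control, squares PKA dKO, bars mean ± SD, n = 3, with the Hsd11b2 control bar ending at the axis). The groups overlap in all 9 panels; Hsd11b2 reaches 71.9 CPM in control clone 1, and Atp1b1 and Tsc22d3 have 2 dKO clones below all controls.

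Without control clone 1 and dKO clone 3, 3 of the 9 members passed the same test, against 3.00% of 17252 genes. Hsd11b2 was higher in dKO clones 1 and 2 than in control clones 2 and 3, by a log2 fold change of 1.56 (interval 1.07 to 2.06; limma adjusted p = 8.62e-05). Atp1b1 was lower, with a log2 fold change of -0.50 (interval -0.78 to -0.23; adjusted p = 0.0335), and so was Nr3c2, at -0.77 (interval -1.20 to -0.34; adjusted p = 0.0367). With 2 clones a group, 42.5% of all genes had groups that did not overlap, and so had 6 of the 9 members. Leaving out 1 clone at a time gave 0 members, against 0.836%, 0.170% and 0.204% of genes without control clones 1, 2 and 3 and 0.0754%, 0.0639% and 0.266% without dKO clones 1, 2 and 3. A term that set these 2 libraries against the other 4 also gave 0 members, against 0.426% of genes. Over the 20 alternatives these were the lowest adjusted p of the 3 genes, and the highest was 1.00 for each. Hsd11b2 passed when control clone 1, its highest value, and dKO clone 3, its lowest dKO value, were left out together. The same removal took out dKO clone 3, the dKO clone inside the control range for Atp1b1. It also took out control clone 1, the control clone inside the dKO range for Nr3c2. Without control clone 1 alone its log2 fold change was 1.22 and it did not pass (limma adjusted p = 0.110), without dKO clone 3 alone it was 0.58, and without control clone 2 alone it was -0.52. Genes of chromosome 8, which holds Nr3c2 and Hsd11b2, had a median deviation of 0.20, -0.19 and 0.12 in control clones 1, 2 and 3. With chromosome medians removed over 6 clones the log2 fold changes of Nr3c2 and Hsd11b2 were -0.66 and 0.26. This removal was not run over the 4 clones. The other 6 members did not pass over the 4 clones, at 0.14 for Scnn1a, 0.41 for Scnn1b, 0.48 for Scnn1g, -0.10 for Sgk1, 0.17 for Nedd4l and -0.34 for Tsc22d3.

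**Figure D4:**
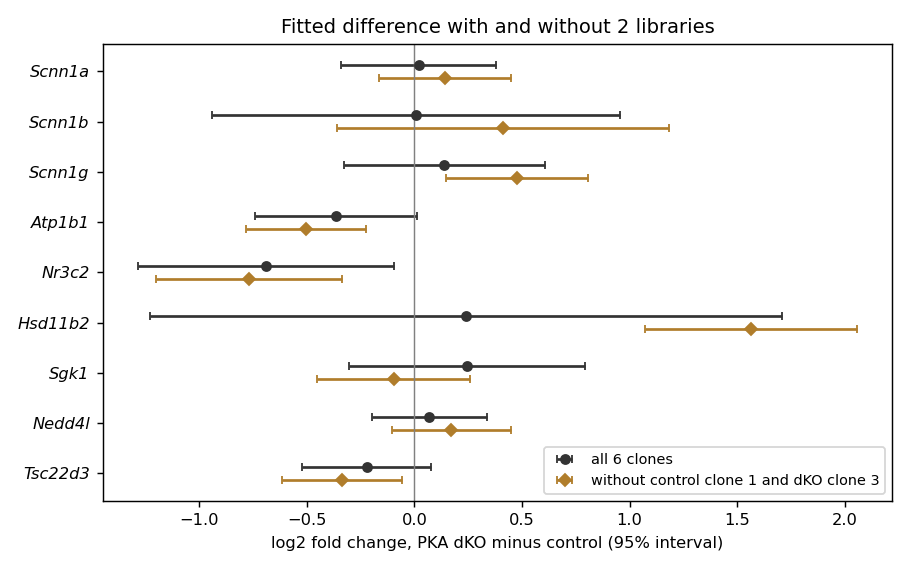
Fitted log2 fold change of each gene, PKA dKO minus control, with its 95% interval, over all 6 clones (circles) and over 4 clones without control clone 1 and dKO clone 3 (diamonds). Hsd11b2 moves from 0.24 to 1.56, and the intervals of Atp1b1 and Nr3c2 lie below 0 over 4 clones.

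In 6 further lists of the pathway's genes, with 9 to 20 tested genes each, 1 gene passed over the 6 clones, beside 0.168% of all genes tested. Over the 4 clones without control clone 1 and dKO clone 3, 5 passed, beside 3.00%. The lists were chosen with earlier results of these data known, so these counts do not test them. Of 9 genes tested for subunits and FXYD regulators of the Na,K-ATPase, 0 passed; the median log2 fold change was 0.06. Fxyd5, a small regulator of the pump, had the lowest p, with 6.28, 2.29 and 2.33 CPM over the control and 1.67, 2.19 and 0.898 CPM over the dKO clones (log2 fold change -1.09, limma adjusted p = 0.783). Over the 4 clones its log2 fold change was -0.26. Fxyd2, the gamma subunit of the pump, which was named after its values were seen, read 11.3, 37.5 and 37.9 CPM (control) and 9.81, 7.82 and 37.75 CPM (dKO). Control clone 1 and the first 2 dKO clones were low and the other 3 clones high, and the log2 fold change was -0.82 over the 6 clones, where it did not pass, and -2.09 over the 4 clones, where it did.

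Of 16 corticosteroid target genes tested, 0 passed, with 8 positive and 8 negative fold changes and a median of 0.03. Errfi1, a feedback inhibitor of the EGF receptor, read 81.4, 67.3 and 68.3 CPM (control) and 87.0, 92.5 and 112 CPM (dKO). Its groups did not overlap, which held for 10.8% of all genes tested, and it did not pass (log2 fold change 0.42, limma adjusted p = 0.486). Edn1, the endothelin 1 gene, likewise did not overlap, at 6.26 to 9.24 and 10.1 to 16.25 CPM (log2 fold change 0.60, adjusted p = 0.694). The most abundant of the list, Lcn2, had 418 ± 49.9 and 440.3 ± 91.0 CPM. Fkbp5, a glucocorticoid-induced gene for an immunophilin that was named after its values were seen, ranged from 206 to 216 CPM over the control clones, and dKO clones 1, 2 and 3 had 212, 218 and 284 CPM. Zbtb16, named after its values were seen, read 31.8, 35.6 and 25.9 CPM (control) and 17.98, 12.1 and 46.5 CPM (dKO). Its log2 fold change was -0.51 over the 6 clones, where it did not pass, and -1.03 over the 4 clones, where it did (limma adjusted p = 0.0012). In Zbtb16, as in Atp1b1 and Tsc22d3, dKO clones 1 and 2 were below all controls and dKO clone 3 was not. Per1, Dusp1 and Mt1 of this list, named after their values were seen, had the same order. The share of all genes with this order was not computed, and dKO clone 3 is a library that stood apart.

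Of 20 partners of SGK1 and NEDD4-2, 0 passed, with a median of 0.01. Stk39, the kinase SPAK, read 1.69, 2.78 and 5.23 CPM (control) and 8.61, 3.48 and 16.2 CPM (dKO; log2 fold change 1.42, limma adjusted p = 0.606). It passed with limma-trend on FPKM, at 1.24 (adjusted p = 0.0369), and its log2 fold change was 0.52 over the 4 clones, where it did not pass. Usp10, a deubiquitinase, had a log2 fold change of -0.48 (adjusted p = 0.546) and Nedd4 one of 0.10. Of 9 degenerin relatives and potassium channels tested, 0 passed over the 6 clones, with a median of 0.05. The potassium channel gene Kcnj16 was at 25.7 CPM in control clone 3 and 1.44 to 4.77 CPM in the other 5 clones. Its log2 fold change was -1.37 over the 6 clones (limma adjusted p = 0.891), -0.41 without control clone 3 and -2.25 over the 4 clones, where it passed (adjusted p = 0.00586). Kcnj1, the ROMK channel that secretes potassium beside ENaC, was at 0.166 to 0.887 CPM, and the proton-gated channel gene Asic1 at 12.8 to 18.3 CPM.

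Among 9 genes of ENaC-processing proteases and their inhibitors, 0 rose and 1 fell, Tmprss4, a membrane serine protease that can cleave ENaC. The control clones had 21.4, 35.8 and 18.6 CPM and the dKO clones 4.11, 4.15 and 8.39 CPM. The mean fell from 25.25 ± 9.21 to 5.55 ± 2.46 CPM, and the fitted log2 fold change was -2.20 (SE 0.32; adjusted p = 0.0252 by limma). The log2 fold change was of like size, but did not pass, without dKO clone 1 (-2.03, adjusted p = 0.0604), without dKO clone 2 (-2.03, adjusted p = 0.0823) and with no TMM factors (-2.19, adjusted p = 0.0506). Furin, which cuts the alpha and gamma subunits, ranged from 123.4 to 178 CPM (control) and from 99.0 to 123.2 CPM (dKO). Its groups narrowly did not overlap, as for 10.8% of all genes tested (log2 fold change -0.30, limma adjusted p = 0.933). The inhibitor gene Spint2 had a log2 fold change of -0.16. The list's median was -0.11. Plau, the urokinase gene, named after its values were seen, had a log2 fold change of 0.41 over the 6 clones, where it did not pass, and of 0.82 over the 4 clones, where it did.

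**Figure D5:**
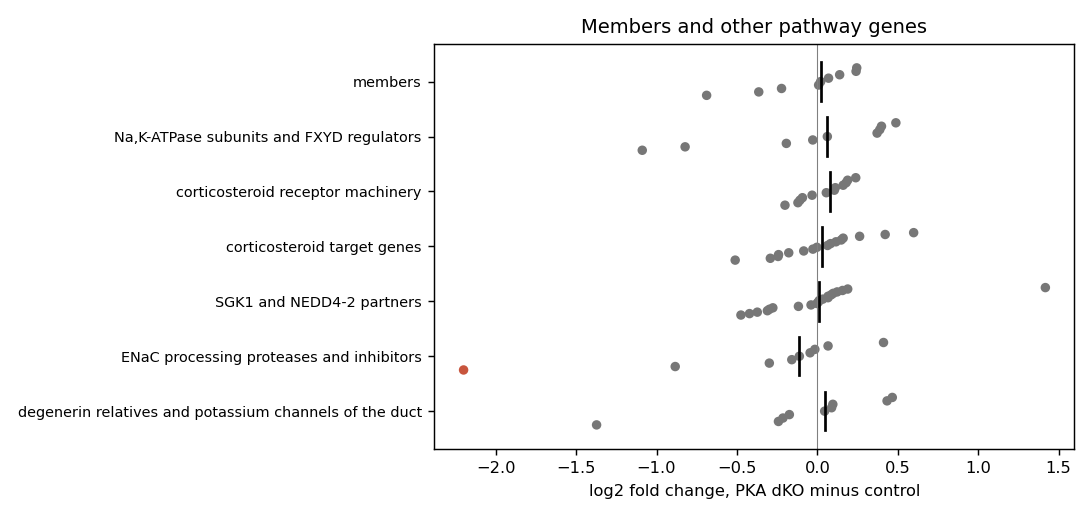
Log2 fold change, PKA dKO minus control over 6 clones, of the 9 members and of each gene tested in 6 further lists (1 point a gene, black line the median of the list). Medians lie between -0.11 and 0.08, and Tmprss4, at -2.20, is the gene past the threshold (red).

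For members whose log2 values spanned at least 1 over the 6 clones, the genes of most like profile were sought among 9925 tested genes of at least 5 CPM, by the root mean square difference of log2 values centred on each gene's mean. Nr3c2 was nearest to Amacr (0.12), at 7.75, 14.1 and 14.4 CPM (control) and 6.92, 7.98 and 6.45 CPM (dKO), and to Fbxo32 (0.18). Scnn1b was nearest to Prkg2 (0.16) and Kctd12b (0.23). Hsd11b2 was nearest to Sorcs2 (0.43) and Plat (0.44). These distances were larger, but they were not scaled to a gene's span over the clones. That span was 3.48 on the log2 scale for Hsd11b2, 1.54 for Scnn1b and 1.36 for Nr3c2. Like Hsd11b2, both genes were highest in control clone 1 (Sorcs2 66.95 and Plat 34.75 CPM). Both were lowest in control clone 2 (7.23 and 3.698 CPM), also like Hsd11b2. In both, dKO clone 1 exceeded dKO clone 2, the reverse of Hsd11b2. These are descriptions over 6 clones among which 2 stand apart.

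The authors' deposited table, from their own edgeR comparison, listed 8 of the 9 genes, without Scnn1b, and gave none a false discovery rate under 0.05; it has 354 such transcripts of 10190. Its log2 fold changes were lowest for Nr3c2, at -0.75 (false discovery rate 0.201), and Atp1b1, at -0.37 (0.162). For Hsd11b2 the authors' deposited table gave -0.32 (0.921), the opposite sign to the log-scale fit above.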

How the data were processed

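Total RNA, depleted of ribosomal RNA, was made into stranded libraries from 262 ng per clone, per the labels' protocols. HOMER 4.8, STAR 2.5.2a, edgeR, SAMtools and the build GRCm38.p5 appear, without roles, in the processing notes of the submitters. Counting rules and any use of strand were not given in the sources used here. Deposited read columns are a signal: the authors scaled each library to a common total, and dividing by the step of each library gave whole reads for 100% of values (tolerance 0.01 scaled reads). The deposited FPKM values refer to larger totals. The table's reads are 48.7% of these in control clone 1, 48.1% in dKO clone 3 and 31.7% to 39.9% in the other libraries. Levels per length were therefore computed from recovered reads. The authors' deposited comparison holds edgeR output per the file headers, with log2 fold changes, p-values and a false discovery rate.

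limma-trend (limma 3.58.1, R 4.3.3) was fitted to all 16683 genes kept by filterByExpr (minimum 10 reads, total 15; edgeR 4.0.16), on log2 of scaled reads divided by TMM factors (0.909 to 1.07) plus 1, with group as the only term. CPM values use recovered reads and TMM-adjusted library sizes. Adjusted p-values follow Benjamini and Hochberg over all genes, with a threshold of 0.05. Alternatives used the quasi-likelihood test of edgeR and DESeq2 1.42.0 on recovered reads, among 20 in all. Deviations of same-numbered clones correlated at -0.36, 0.64 and -0.34, and the clone numbers were not used to pair the samples. Control clone 1 and dKO clone 3, which stood apart, correlated at 0.66. With this split the correlations cannot show whether the numbers pair the samples. Exon counts and overlaps come from GENCODE M21 and start-site windows from RefSeq. For Nedd4l and Hsd11b2 the transcript ends printed here, from the deposited table, differ from those in GENCODE M21.

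The members and lists were chosen with earlier results of these data known. Named genes were the 9 members; in each list those past the threshold, the 2 with the lowest p and the most abundant by FPKM; the 2 most like genes of members spanning at least 1 on the log2 scale; and Prkaca, Prkacb and Aqp2 as a check of labels. Results of some genes that this rule names are not reported here. Other genes were named as list relatives or for their values, as stated.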

Additional observations from a re-analysis of the deposited data

How the results depend on the processing

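Over 20 alternatives for each of the 9 members, 166 of 180 values kept their sign and stayed on the same side of the threshold, 3 passed the threshold and 11 changed sign. The number of members past the threshold was 0 in every alternative except 3 without control clone 1 and dKO clone 3. The number of all genes past the threshold, 28, was 17 with no TMM factors, 213 with DESeq2 on recovered reads, 91 with limma-trend on FPKM, 518 without control clone 1 and dKO clone 3 and 71 with that split of libraries as a term; leaving out 1 clone gave 11 to 146 genes and 0 to 0 members. With the clone number as a replicate block 196 genes and 0 members passed, and Stk39 passed (limma adjusted p = 0.0435). A pairing of clones by number was not established, and not every sample correlated best with its own number.

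The signs of these fold changes turned. Scnn1a was -0.00229 with DESeq2 and -0.14 to 0.14 with 1 clone left out. Scnn1b was -0.00431 with the 1 CPM filter and -0.39 to 0.39 with 1 clone left out, and Scnn1g -0.0727 to 0.39. Hsd11b2 was -0.41 with edgeR's quasi-likelihood test, -0.42 with DESeq2 and -0.52 to 1.22 with 1 clone left out. Sgk1 was -0.10 without control clone 1 and dKO clone 3. Among context genes, Kcnj1 was -0.0335 without those 2 libraries; with 1 clone left out Lcn2 ran from -0.10 to 0.15, Asic1 from -0.0767 to 0.19 and Kcnj1 from -0.22 to 0.81. The cause of these turns was not tested. Among the 9 members Scnn1b had the fewest reads, 45 to 152 a library.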
